A study of Homo sapiens with 18 samples.

Results

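The genes described here were ODC1 and 9 other genes of polyamine metabolism, namely OAZ1, OAZ2, AZIN1, AMD1, SRM, SMS, SAT1, SMOX and PAOX. They were picked by symbol, and all 10 were found among the 63677 genes of the count table. ODC1 stood at the head of the list because it was higher in KD than in WT cells both without and with LPS, so those differences are given below as descriptions without a test. Other comparisons of ODC1 that involve WT or KD share libraries with that choice, so their p-values are no independent evidence, and counts of calls leave ODC1 aside. Its LPS response in SCR shares none of these libraries. All 10 genes passed the filter on low counts, as did 16678 genes in all.

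The values came from 18 libraries of THP-1 cells, a line derived from a human acute monocytic leukaemia, which made up 6 groups of 3. KD cells had received 25 nM of an siRNA against TRAFD1, SCR cells 25 nM of a non-targeting siRNA, and WT cells no siRNA. At 72 h after transfection, cells of each kind were given medium alone (replicates 1 to 3) or lipopolysaccharide from E. coli (LPS, replicates 4 to 6) at 10 ng/ml, for 4 h by the sample labels. A legend in the study's supplement gives another duration for LPS. The descriptions of WT differ, since it is called untreated in one place and treated with transfection mix lacking siRNA in another, so in SCR against WT the siRNA and its reagent cannot be told apart. All 6 groups share 1 cell line, and the siRNA against TRAFD1 had a single target sequence. The labels do not say whether the 3 libraries of a group came from separate cultures, so p-values measure the spread between these libraries only, and in bulk RNA fewer expressing cells and less RNA per cell cannot be told apart.

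Polyamines (putrescine, spermidine and spermine) are small, positively charged molecules that bind RNA, DNA and proteins and are needed for growth. Ornithine decarboxylase, the product of ODC1, makes putrescine from ornithine and limits the rate of the pathway. AMD1 makes decarboxylated S-adenosylmethionine, the donor of the aminopropyl groups that spermidine synthase (SRM) and spermine synthase (SMS) add in turn. The antizymes OAZ1 and OAZ2 bind ornithine decarboxylase and send it to the proteasome, and they are themselves made through a ribosomal frameshift that polyamines promote. AZIN1 resembles ornithine decarboxylase, lacks its activity and binds antizyme in its place. SAT1 acetylates spermidine and spermine, PAOX oxidises the acetylated forms, and SMOX oxidises spermine directly. The enzyme and the antizymes are controlled strongly after transcription, and the counts bear on RNA only.

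The libraries held 8206023 to 22344279 counts, and levels are given as CPM, the counts per 1000000 counts after TMM scaling of the library totals. A gene with 0 counts could still have a level of up to 3 counts, or 0.133 to 0.378 CPM by library, a limit that covers counting error only. TRAFD1, the target of the siRNA, stood at 20.5 ± 1.99 CPM in WT, 23.7 ± 3.38 in SCR and 8.66 ± 3.13 in KD without LPS (mean ± SD, n = 3), and at 17.0 ± 4.75, 22.7 ± 4.42 and 14.5 ± 1.12 CPM with LPS. Its difference between KD and SCR was −1.45 on the log2 scale (SE 0.23, edgeR quasi-likelihood adjusted p = 0.0277) without LPS and −0.65 (adjusted p = 0.262) with LPS, and the difference between these values was 0.80 (SE 0.32, adjusted p = 0.612). The 9 myeloid markers summed to between 458 and 645 CPM in every library, whereas those of T cells reached at most 0.142 CPM and those of B cells at most 4.28 CPM.

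ODC1 (ENSG00000115758) lies on the minus strand of chr2:10580094-10588453 in GRCh37, SRM (ENSG00000116649) on the minus strand of chr1:11114641-11120077, and AMD1 (ENSG00000123505) on the plus strand of chr6:111195973-111220082. The 250 bases before the start of the canonical transcript are shown for these 3 genes because they are the synthesis genes that passed the test between SCR and WT without LPS. They were read from the GRCh37 genome at chr2:10588454-10588703, chr1:11120076-11120325 and chr6:111195738-111195987, 5′ to 3′ on the strand of the gene. Capitals mark the E-box CACGTG, which reads the same on both strands and is a binding motif of MYC and MAX.
ODC1 upstream: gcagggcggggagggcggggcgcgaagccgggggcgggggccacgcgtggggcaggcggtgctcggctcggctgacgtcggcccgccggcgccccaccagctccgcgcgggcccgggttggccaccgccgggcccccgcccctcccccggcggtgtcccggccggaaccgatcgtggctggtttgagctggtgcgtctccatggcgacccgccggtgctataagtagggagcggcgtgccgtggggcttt
SRM upstream: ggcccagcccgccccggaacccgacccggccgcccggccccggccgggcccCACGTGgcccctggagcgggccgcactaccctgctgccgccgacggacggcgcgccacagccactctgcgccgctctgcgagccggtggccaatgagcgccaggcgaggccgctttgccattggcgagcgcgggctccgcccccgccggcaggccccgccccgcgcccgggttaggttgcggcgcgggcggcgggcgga
AMD1 upstream: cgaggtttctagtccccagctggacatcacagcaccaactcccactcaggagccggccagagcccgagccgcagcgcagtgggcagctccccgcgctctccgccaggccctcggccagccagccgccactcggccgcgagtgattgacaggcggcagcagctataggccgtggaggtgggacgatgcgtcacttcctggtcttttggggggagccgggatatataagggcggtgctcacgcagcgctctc
The SRM window held 1 such match, 199 bases before the start, and the ODC1 and AMD1 windows held 0. In intron 1 of the canonical transcript there were 2 matches in 2856 bases of ODC1, 2 in 431 bases of SRM and 4 in 12289 bases of AMD1. No share over the introns of other genes goes with these counts. Of the intron matches only those of ODC1 are shown, with 7 bases on either side. They lie at chr2:10588155-10588174, 286 bases after the start, and at chr2:10588121-10588140, 320 bases after it. The nearer one overlaps an exon in 0 of the annotated coding transcripts, and the farther one is exonic in 2 of them.
ODC1 nearer site: ccccgggCACGTGtgcggcg
ODC1 farther site: gcggagaCACGTGgtcgccg
Among 34943 RefSeq promoters (GRCh38.p14), 6.32% held CACGTG in the 250 bases before the start, and 7 of the 10 genes could be matched there by symbol. RefSeq lists 2 starts for ODC1, and the 250 bases before them held 0 and 1 match. SRM held 1 match there, and AMD1, OAZ1, OAZ2, SMS and SAT1 held 0. A match is a run of letters and does not show that a factor is bound.

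ODC1 without LPS was low in WT and high in both siRNA conditions. Its level was 26.5, 24.6 and 25.7 CPM in WT replicates 1 to 3, 66.6, 62.3 and 62.1 CPM in SCR, and 70.9, 61.1 and 63.1 CPM in KD. Every SCR and KD library lay above every WT library, while the SCR and KD libraries overlapped. ODC1 was 2.49-fold higher in SCR than in WT (log2 fold change 1.31, SE 0.12, adjusted p = 1.02e-06), in a comparison that shares its WT libraries with the one that singled ODC1 out. The difference between KD and WT, which was the reason for the choice, was 1.35 on the log2 scale. Between KD and SCR it was 0.03 (95% interval −0.19 to 0.26, adjusted p = 0.942), and its sign turned to −0.04 without KD replicate 1. TNF, a cytokine gene that LPS induces, was also higher in the siRNA conditions without LPS, at 35.1 to 47.8 CPM in SCR and 34.9 to 49.5 CPM in KD against 12.7 to 18.7 CPM in WT (log2 fold change 1.46, SE 0.15, adjusted p = 9.44e-06 for SCR against WT). IL1B, another gene that LPS induces, did not pass against WT without LPS. Its log2 fold change was 0.39 (SE 0.31, adjusted p = 0.568) for SCR and −0.46 (SE 0.34, adjusted p = 0.432) for KD. The part of TNF in the ODC1 difference was not tested.

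With LPS the gaps of SCR and KD from WT in ODC1 were smaller than without. Its level was 41.8, 53.2 and 47.6 CPM in WT replicates 4 to 6, 64.1, 74.1 and 58.6 CPM in SCR, and 91.1, 79.5 and 73.5 CPM in KD. The WT libraries were again the lowest and did not overlap the others, and 1 SCR library reached into the KD range. The difference between SCR and WT was 0.46 on the log2 scale (SE 0.12, adjusted p = 0.116) and that between KD and SCR 0.31 (95% interval 0.09 to 0.53, adjusted p = 0.293), neither of which passed the test. With DESeq2 the first of these passed (adjusted p = 0.0213), again with the WT libraries that led to the choice of ODC1. KD was above WT by 0.77, again given as a description.

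**Figure D1:**
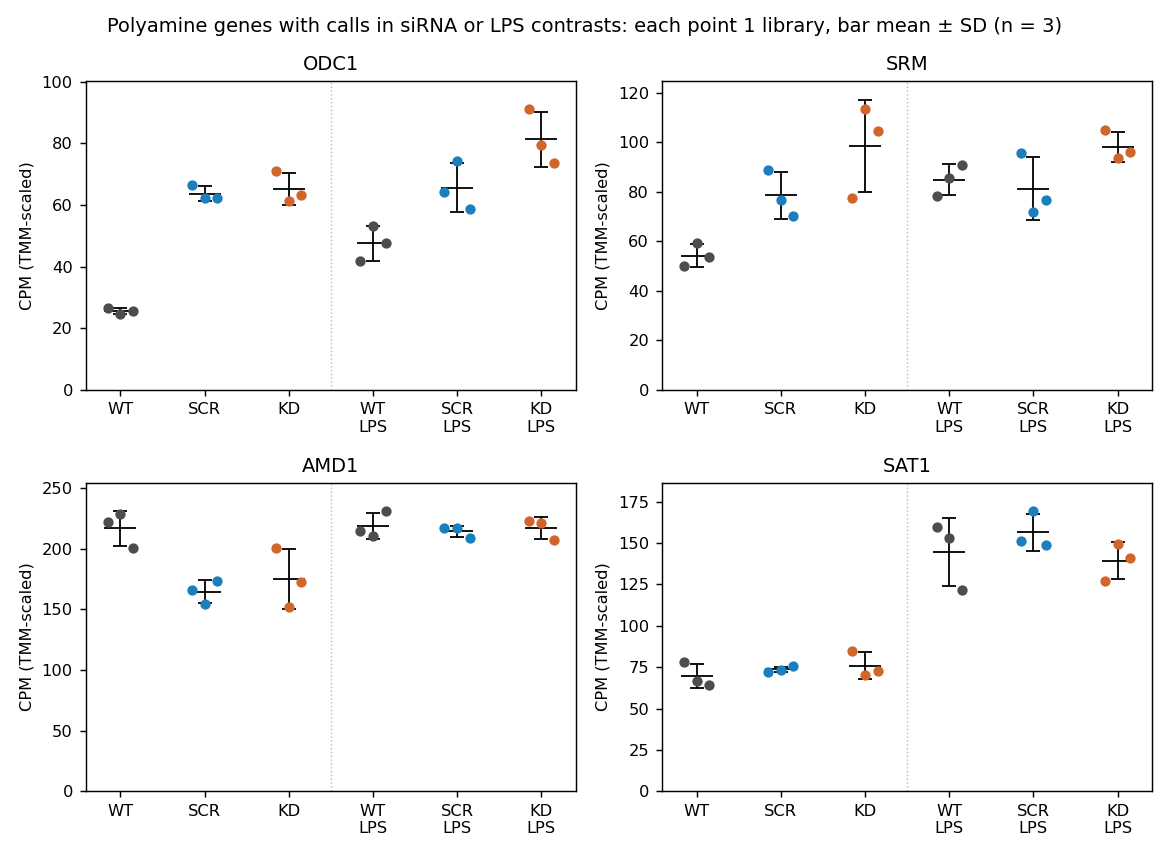
Level of ODC1, SRM, AMD1 and SAT1 (vertical axis, TMM-scaled CPM) in the 6 groups (horizontal axis), where each point is 1 library and bars give the mean ± SD (n = 3). The WT libraries of ODC1 lay between 24.6 and 26.5 CPM without LPS, below all other libraries, and SAT1 was higher with LPS in all 3 conditions.

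LPS raised ODC1 in WT, while its change did not pass the test in SCR or KD. In WT the rise was 0.89 on the log2 scale (SE 0.12, adjusted p = 1.24e-05), and every LPS library lay above every unstimulated one. In SCR the change was 0.04 (95% interval −0.18 to 0.27, adjusted p = 0.841) with overlapping groups, and in KD it was 0.32 (SE 0.11, adjusted p = 0.0733) without overlap. The LPS response of SCR differed from that of WT by −0.85 (SE 0.16, adjusted p = 0.0288). This value and the response in WT rest on the WT libraries whose low level led to the choice of ODC1, so neither p is independent evidence. Of the other 9 members 0 passed that comparison, where 0.234% of all genes did, 2 had an unadjusted p under 0.05 and DESeq2 called 0. That share refers to edgeR calls only. TNF passed the comparison (−1.42, SE 0.21, adjusted p = 0.0021), and IL1B did not (0.22, SE 0.38, adjusted p = 0.87). The ODC1 response of KD against SCR differed by 0.28 (SE 0.16, adjusted p = 0.707). The SCR against WT result was sensitive to single libraries, since it passed in 3 of 12 fits that each left out 1 library. Adjusted p was 0.066 and 0.069 without WT replicates 1 and 3, 0.119 and 0.0713 without WT replicates 5 and 6, 0.103, 0.0678 and 0.0607 without SCR replicates 1, 2 and 3, and 0.0882 and 0.0983 without SCR replicates 4 and 6, while the value itself stayed between −0.95 and −0.76.

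SRM, which turns putrescine into spermidine, was ordered like ODC1 in the unstimulated cells. Its level was 49.8, 59.2 and 53.5 CPM in WT, 88.6, 76.7 and 70.1 CPM in SCR, and 77.4, 113 and 105 CPM in KD. No SCR or KD library overlapped the WT libraries. SRM was higher in SCR than in WT by 0.54 on the log2 scale (SE 0.14, adjusted p = 0.0323) and in KD than in WT by 0.86 (SE 0.14, adjusted p = 0.000398), and the KD to SCR difference of 0.32 (95% interval 0.06 to 0.59, adjusted p = 0.313) did not pass. The SCR call was lost without WT replicate 1 or 3 (adjusted p = 0.123 and 0.11) and without SCR replicate 1 or 2 (0.177 and 0.0652), whereas the KD call held in all 6 such fits.

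With LPS, SRM stood at 78.1, 85.6 and 90.8 CPM in WT, 95.7, 71.6 and 76.5 CPM in SCR, and 105, 93.4 and 96.1 CPM in KD. The WT libraries thus reached the range of the SCR libraries. LPS raised SRM in WT by 0.65 (SE 0.14, adjusted p = 0.00215), and its change was 0.04 in SCR (adjusted p = 0.86) and −0.01 in KD (adjusted p = 0.987). The differences between these responses were −0.60 for SCR against WT (SE 0.19, adjusted p = 0.336) and −0.65 for KD against WT (SE 0.19, adjusted p = 0.145), and neither passed the test. Without KD replicate 1 of the unstimulated cells the second was −0.80 with an adjusted p of 0.0101, and DESeq2 also called it (adjusted p = 0.0422).

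AMD1, which supplies the aminopropyl donor, was highest in WT without LPS. Its level was 222, 228 and 200.4 CPM in WT, 166, 155 and 173 CPM in SCR, and 200.8, 152 and 173 CPM in KD. The SCR libraries lay below all WT libraries, and KD replicate 1 overlapped WT. AMD1 was lower in SCR than in WT by 0.40 on the log2 scale (log2 fold change −0.40, SE 0.09, adjusted p = 0.0245) and lower in KD than in WT (−0.31, SE 0.09, adjusted p = 0.039). The SCR call was lost without WT replicate 1 or 2 (adjusted p = 0.0801 and 0.0679) and without SCR replicate 1, 2 or 3 (0.0795, 0.0904 and 0.0517). The KD call was lost without WT replicate 1 or 2 (0.105 and 0.107), without KD replicate 2 or 3 (0.151 and 0.094), without the filter on low counts (0.0596) and in a fit to these 6 libraries alone (0.283).

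With LPS, AMD1 was level across the conditions, at 215, 211 and 231 CPM in WT, 217, 217 and 209 CPM in SCR, and 223, 221 and 207 CPM in KD. LPS raised it in SCR by 0.38 (SE 0.09, adjusted p = 0.00788) and in KD by 0.31 (SE 0.09, adjusted p = 0.0371), and the change in WT was 0.01 (95% interval −0.17 to 0.20, adjusted p = 0.945). The difference between the SCR and WT responses was 0.37 and did not pass the test (adjusted p = 0.416). The KD call was lost without KD replicate 2, 3, 4, 5 or 6 (adjusted p = 0.164, 0.109, 0.1, 0.112 and 0.0539), without the filter on low counts (0.0796) and in a fit to the KD libraries alone (0.165). AMD1P3, a processed copy that may share reads with AMD1, held 4.19% to 11.2% of the counts of the pair, and adding its counts to AMD1 left these calls in place (adjusted p = 0.0125 for SCR against WT and 0.0165 for KD against WT without LPS).

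SMS, which makes spermine, varied least among the 10 genes, between 124 and 161 CPM over all 18 libraries. The ratio of its highest to its lowest group mean was 1.07, against 3.18 for ODC1. It passed no test in any of the 12 comparisons.

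SAT1, the acetyltransferase that opens the route of breakdown and export, was the 1 member that LPS raised in all 3 conditions. It stood at 77.9, 66.7 and 64.5 CPM in WT, 72.3, 73.1 and 75.4 CPM in SCR, and 85.0, 70.5 and 72.5 CPM in KD without LPS. With LPS it stood at 160, 153 and 121 CPM in WT, 151, 169 and 149 CPM in SCR, and 127, 149 and 141 CPM in KD. The LPS libraries lay above the unstimulated ones in every condition. On the log2 scale SAT1 rose by 1.05 in WT (SE 0.11, adjusted p = 7.59e-07), by 1.09 in SCR (SE 0.11, adjusted p = 6.57e-07) and by 0.87 in KD (SE 0.11, adjusted p = 1.58e-05), and all 3 calls held in each fit that left out 1 library. The response of KD differed from that of SCR by −0.22 (SE 0.16, adjusted p = 0.763), and SAT1 passed no comparison between conditions.

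OAZ1, the main antizyme gene, had by far the most counts of the 10. Without LPS it stood at 1505, 1508 and 1183 CPM in WT, 1376, 1276 and 1445 CPM in SCR, and 1626, 1119 and 1588 CPM in KD, and the groups overlapped. With LPS it stood at 1216, 1260 and 1085 CPM in WT, 1124, 1498 and 1162 CPM in SCR, and 1804, 1923 and 1581 CPM in KD, where every KD library lay above every other. OAZ1 was higher in KD than in WT with LPS by 0.58 on the log2 scale (SE 0.13, adjusted p = 0.0101), a call that was lost without WT replicate 6 (adjusted p = 0.0669) or KD replicate 5 (0.053). Against SCR the difference was 0.49 (95% interval 0.23 to 0.75, adjusted p = 0.199) and did not pass. It did pass with DESeq2 (adjusted p = 0.0385), without the filter on low counts (9.39e-05), with a replicate block (0.0463) and in a fit to these 6 libraries alone (0.0429). The last 500 bases of OAZ1 overlap another annotated gene that the table does not hold.

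OAZ2, a second antizyme, stood at 64.7, 105 and 74.9 CPM in WT, 62.8, 71.2 and 64.4 CPM in SCR, and 66.9, 86.9 and 103 CPM in KD without LPS. With LPS it stood at 125, 105 and 112 CPM in WT, 85.4, 84.2 and 103 CPM in SCR, and 107, 80.9 and 106 CPM in KD. Its LPS changes were 0.49 in WT (SE 0.16, adjusted p = 0.052), 0.46 in SCR (SE 0.17, adjusted p = 0.0616) and 0.19 in KD (SE 0.16, adjusted p = 0.486), and none passed the test. The change in WT was 0.70 (adjusted p = 0.00516) without WT replicate 2, the unstimulated library with the highest OAZ2 level of its group, and DESeq2 called the changes in WT and SCR (adjusted p = 0.0294 and 0.0456).

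AZIN1, the inhibitor of the antizymes, stood at 150, 126 and 127 CPM in WT, 133, 154 and 153 CPM in SCR, and 165, 112 and 134 CPM in KD without LPS. With LPS it stood at 141, 144 and 144 CPM in WT, 168, 198 and 152 CPM in SCR, and 172, 186 and 174 CPM in KD. The SCR and KD libraries lay above the WT libraries with LPS and overlapped them without. The difference with LPS was 0.27 for SCR against WT (SE 0.12, adjusted p = 0.34) and 0.31 for KD against WT (SE 0.12, adjusted p = 0.108), and the LPS change in KD was 0.37 (SE 0.12, adjusted p = 0.0523). None of the 3 passed the test. The last was 0.53 (adjusted p = 0.00315) without KD replicate 1, and it also passed with DESeq2 and without the filter on low counts. The difference of KD from WT with LPS passed in a fit to the libraries of that comparison alone (adjusted p = 0.0142).

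The oxidases had the fewest counts of the 10 genes. PAOX had 15 to 80 counts per library (1.46 to 4.83 CPM) and SMOX 5 to 45 counts (0.453 to 2.48 CPM). Neither passed a test, and the SE of their log2 fold changes was as wide as 0.36 for PAOX and 0.50 for SMOX in comparisons of 2 groups. PAOX in KD was 4.21 to 4.83 CPM without LPS, above all WT and SCR libraries, with a difference from SCR of 0.40 (95% interval −0.26 to 1.06, adjusted p = 0.671). That interval includes 0. The last 500 bases of PAOX overlap another annotated gene on the same strand.

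**Figure D2:**
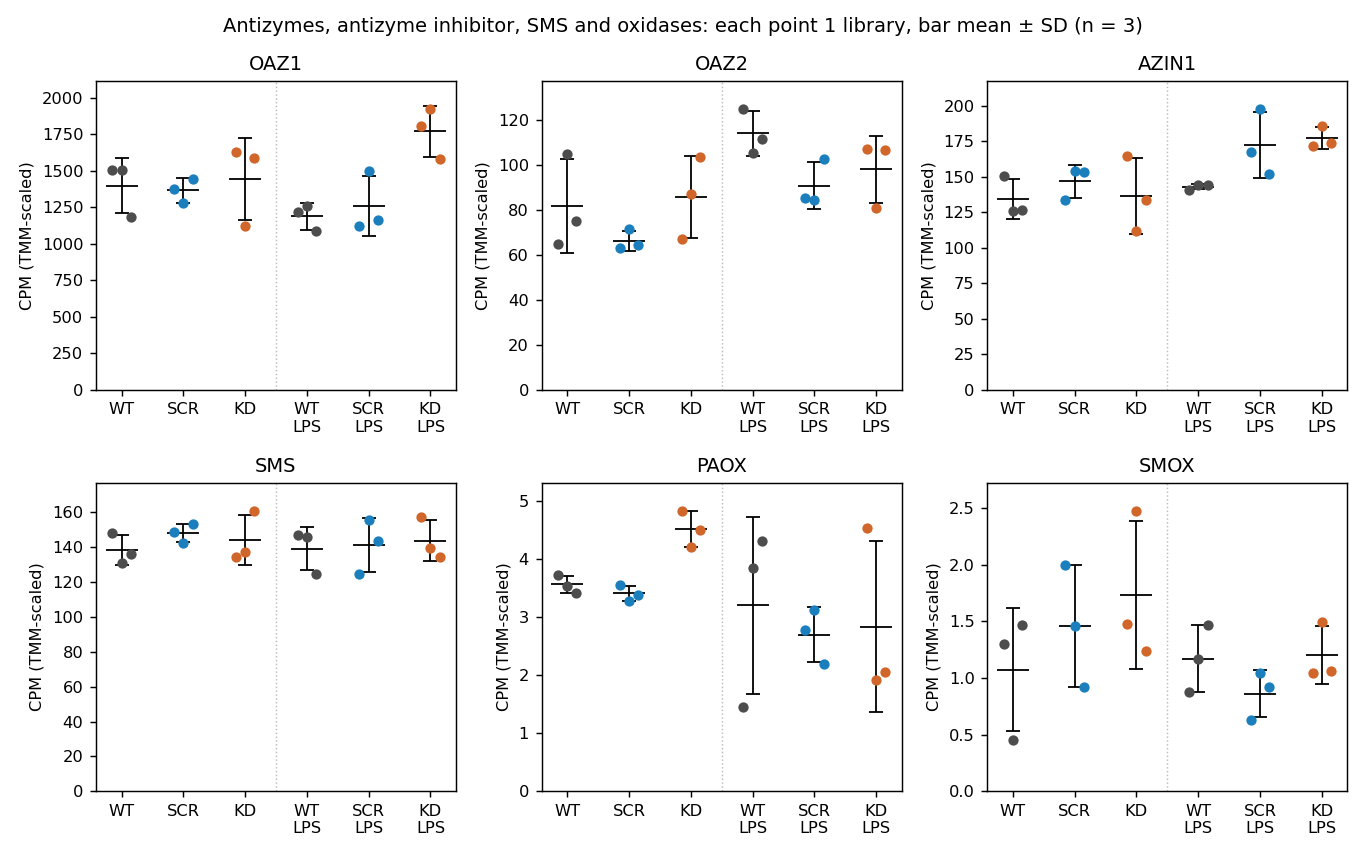
Level of OAZ1, OAZ2, AZIN1, SMS, PAOX and SMOX (vertical axis, TMM-scaled CPM) in the 6 groups (horizontal axis), where each point is 1 library and bars give the mean ± SD (n = 3). The 3 KD libraries with LPS lay at 1581 to 1923 CPM for OAZ1, above the other libraries with LPS, and SMS stayed between 124 and 161 CPM throughout.

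Counts of calls were taken over the 9 members other than ODC1. The shares of all genes beside them refer to edgeR adjusted calls, and none is given for unadjusted p-values or DESeq2. For SCR against WT without LPS, 2 of 9 passed, where 3.23% of all genes tested did. SRM was higher, as were 1.78% of all genes, and AMD1 was lower, as were 1.45%. For KD against WT, 2 of 9 passed without LPS, where 11.7% of all genes did. SRM was higher, as were 5.85% of all genes, and AMD1 was lower, as were 5.85%. With LPS 1 of the 9 passed (OAZ1), where 10.8% of all genes did and 6.29% were higher. For SCR against WT with LPS, 0 of 9 passed where 0.114% of all genes did, 1 had an unadjusted p under 0.05 and DESeq2 called 0. The LPS response of KD against WT passed in 0 of 9 members, where 0.36% of all genes passed. Of these 9, 3 had an unadjusted p under 0.05 and DESeq2 called 1 (SRM).

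The absence of overlap between groups, given above gene by gene, was common among all genes. Leaving ODC1 aside, in SCR against WT there were 2 such members without LPS (SRM and AMD1), where 22.6% of all genes did not overlap, and 2 with LPS (OAZ2 and AZIN1), where 22.8% did not. In KD against WT there were 2 without LPS (SRM and PAOX) beside 24.3% of all genes, and 3 with LPS (OAZ1, AZIN1 and SRM) beside 35% of all genes. In KD against SCR there were 1 without LPS (PAOX) beside 15.1% and 2 with LPS (OAZ1 and SMOX) beside 21.5%. For LPS against medium there were 3 in WT (OAZ2, SRM and SAT1) beside 32.6%, 4 in SCR (OAZ2, AMD1, SAT1 and PAOX) beside 37.2% and 3 in KD (AZIN1, AMD1 and SAT1) beside 25.5%.

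KD and SCR, which both received an siRNA, were not separated by the main edgeR fit at any of these 9 genes, nor at ODC1. Without LPS 0 of 9 passed, where 0.066% of all genes did, 2 had an unadjusted p under 0.05 (OAZ2 and SRM) and DESeq2 called 0. With LPS 0 of 9 passed, where 0% of all genes did, 1 had an unadjusted p under 0.05 (OAZ1) and DESeq2 called 1 (OAZ1). OAZ1 with LPS also passed in edgeR without the filter on low counts, with a replicate block and with the contrast's own libraries. The share of 0% refers to the main edgeR fit and is no background for the unadjusted p or for calls under these alternatives or DESeq2. The LPS response of KD against SCR likewise gave 0 of 9 against 0% of all genes, with 1 unadjusted p under 0.05 and 0 calls by DESeq2.

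LPS raised 2 of 9 members in WT (SRM and SAT1), where 14.3% of all genes changed and 7.01% rose. In SCR it raised 2 (AMD1 and SAT1), where 17.2% of all genes changed and 8.64% rose. In KD the same 2 genes rose, where 11.5% of all genes changed and 6.41% rose. The median log2 change of the 9 was 0.08 in WT, 0.04 in SCR and 0.19 in KD, beside −0.03, −0.03 and −0.00 over all genes.

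**Figure D3:**
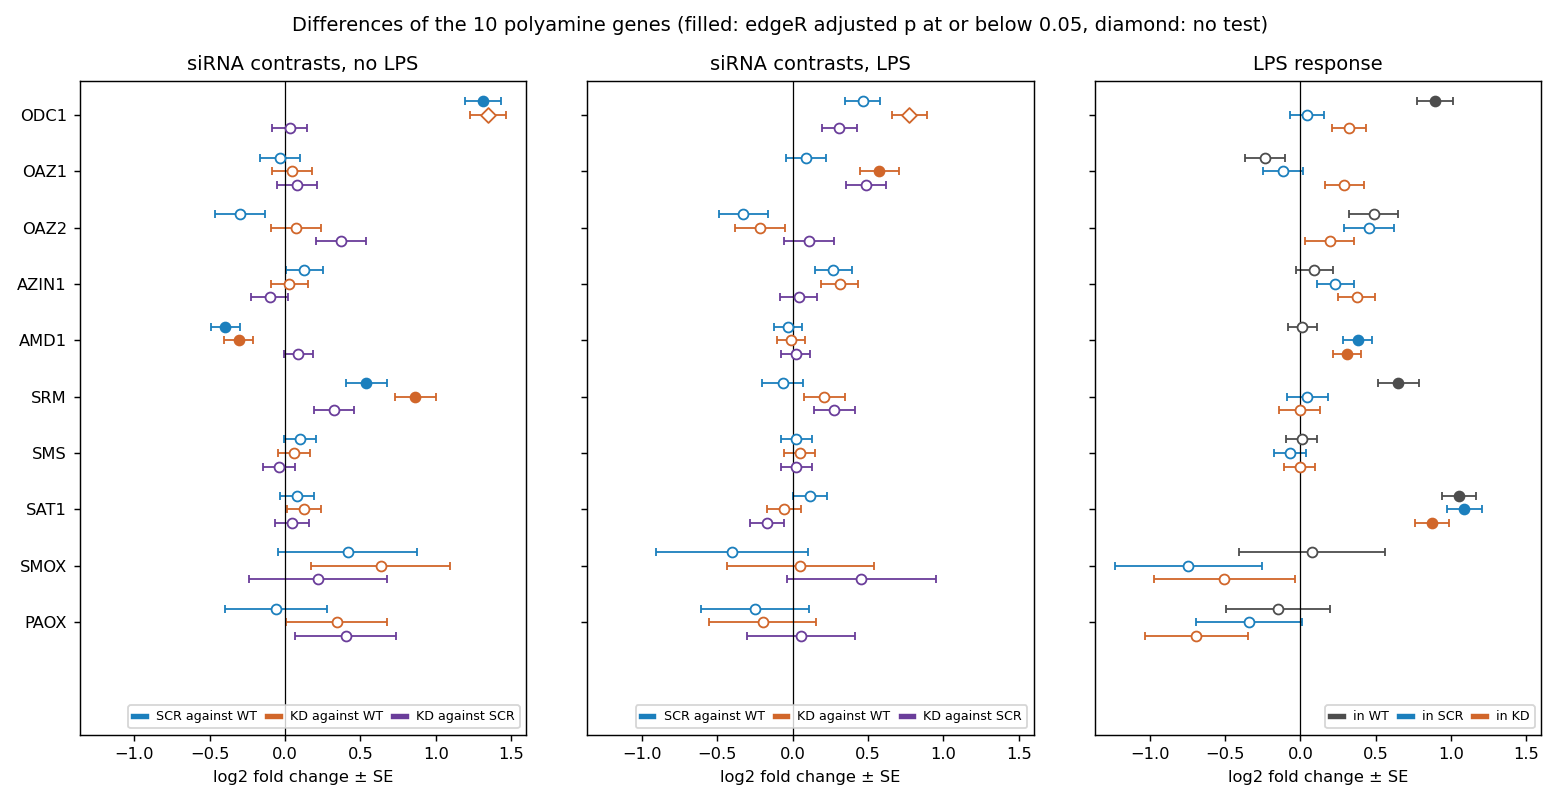
Log2 fold change ± SE (horizontal axis) of the 10 genes (vertical axis) between siRNA conditions without and with LPS and for the LPS response in each condition. Filled points passed the edgeR test at an adjusted p of 0.05, open circles did not, and the diamonds of ODC1 in KD against WT carry no test. ODC1 stands at 1.31 and 1.35 against WT without LPS and at 0.03 for KD against SCR.

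The counts come from the 3′ end, so gene length does not enter the levels. The levels still depend on whether the counted window of each gene holds the 3′ end in use, which was not tested. The AMD1 gene, for example, is annotated to end at position 111220082 and its canonical transcript at 111216916. The windows of OAZ1 and PAOX overlap other annotated genes. The order of the genes is therefore one of counted reads and may differ from that of their RNA. By the median over 18 libraries the order was OAZ1 (1411 CPM), AMD1 (210 CPM), AZIN1 (151 CPM), SMS (143 CPM), SAT1 (103 CPM), OAZ2 (86.1 CPM), SRM (81.9 CPM), ODC1 (62.2 CPM), PAOX (3.48 CPM) and SMOX (1.21 CPM). OAZ1 stood above AMD1, AMD1 above AZIN1, ODC1 above PAOX and PAOX above SMOX in 18 of 18 libraries, and SRM above ODC1 in 17. The other neighbours were not separated, since AZIN1 exceeded SMS in 11 libraries, SMS exceeded SAT1 in 11, SAT1 exceeded OAZ2 in 14 and OAZ2 exceeded SRM in 10.

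The genes whose levels ran closest to that of ODC1 over the 18 libraries were RPL7P23 (Pearson r = 0.96 in log2 CPM), POLR1C (0.93), CDCA5 (0.92), JPT2 (0.91) and HNRNPA1 (0.91). RPL7P23 is a pseudogene of a ribosomal protein gene and HNRNPA1 has many near-identical copies, so their counts may hold reads of other genes. Among the other 9 members SRM came nearest (r = 0.77, rank 154 of 16677 genes), followed by AZIN1 (0.56), SAT1 (0.42), OAZ1 (0.32), SMS (0.27), SMOX (0.25), OAZ2 (0.00), PAOX (−0.03) and AMD1 (−0.24). These values describe libraries that share their groups and their depth, and no test goes with them.

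A wider list of 35 genes around the pathway covered ornithine and arginine supply, the methionine cycle, hypusine formation, transport, other catabolic enzymes and other regulators of ornithine decarboxylase, and 29 of them passed the filter. In KD against SCR 0 of 29 passed without LPS and 0 with LPS, where 0.066% and 0% of all genes did. In SCR against WT 1 was lower without LPS, namely AOC1, the diamine oxidase that breaks down putrescine (log2 fold change −1.25, adjusted p = 0.0466), and 0 changed with LPS. Of all genes, 1.45% were lower in SCR than in WT without LPS and 0.114% changed with LPS. In KD against WT 1 was higher and 3 were lower without LPS, and 6 were higher and 0 lower with LPS. Of all genes, 5.85% were higher and 5.85% lower without LPS. With LPS 10.8% of all genes passed and 6.29% were higher.

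The genes of that list with the smallest adjusted p included carriers and regulators. EIF5A, the protein on which hypusine is formed from spermidine, was 51.0 ± 16.3 CPM in WT, 56.0 ± 0.985 in SCR and 89.0 ± 16.3 in KD without LPS (SD, n = 3). It was higher in KD than in WT by 0.81 (SE 0.16, adjusted p = 0.00225), although near-identical copies of EIF5A may share its reads. AZIN2, a relative of AZIN1, was 4.23 ± 0.769 CPM in WT, 1.65 ± 0.925 in SCR and 0.954 ± 0.598 in KD without LPS, with 6 to 21 counts per KD library. It was lower in KD than in WT (log2 fold change −2.13, SE 0.45, adjusted p = 0.00388). Neither SCR against WT (−1.30, adjusted p = 0.0951) nor KD against SCR (−0.84, adjusted p = 0.471) passed. With LPS its difference between KD and WT was −0.08 (adjusted p = 0.939). MYC, a known activator of ODC1 transcription, stood with LPS at 7.87, 12.5 and 6.94 CPM in WT, 16.2, 16.5 and 12.2 CPM in SCR, and 16.2, 24.9 and 26.3 CPM in KD, and was higher in KD than in WT by 1.30 (SE 0.24, adjusted p = 0.00324). Its partner MAX was lower in KD than in WT without LPS by 0.31 on the log2 scale (log2 fold change −0.31, adjusted p = 0.0249). Without LPS, where ODC1 differed most, MYC was 8.35 to 13.4 CPM in WT, 9.85 to 13.1 CPM in SCR and 11.1 to 17.0 CPM in KD, and the groups overlapped. The part of MYC in the ODC1 difference was not tested.

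LPS moved 4 of these genes in the same direction in all 3 conditions. LACC1, which can release ornithine from citrulline, changed under LPS by 1.32 (WT), 1.56 (SCR) and 1.24 (KD) on the log2 scale. NQO1, which binds ornithine decarboxylase, changed by 0.52, 0.42 and 0.36 in the same order. SLC7A1, a carrier of arginine and ornithine, fell by 1.07, 0.91 and 0.71, and SLC3A2, a transporter subunit, fell by 0.69, 0.66 and 0.55, with all of these passing the test. ALDH9A1, an aldehyde dehydrogenase of polyamine breakdown, fell by 0.36 in WT and by 0.46 in SCR, and its change of −0.29 in KD did not pass (adjusted p = 0.0897). In all, 3 of 29 were called higher and 4 lower in WT, 3 higher and 4 lower in SCR, and 3 higher and 2 lower in KD. For WT the edgeR shares over all genes were 14.3% changed and 7.01% higher. The same shares were 17.2% and 8.64% for SCR, then 11.5% and 6.41% for KD. No separate share of lower genes goes with these counts.

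**Figure D4:**
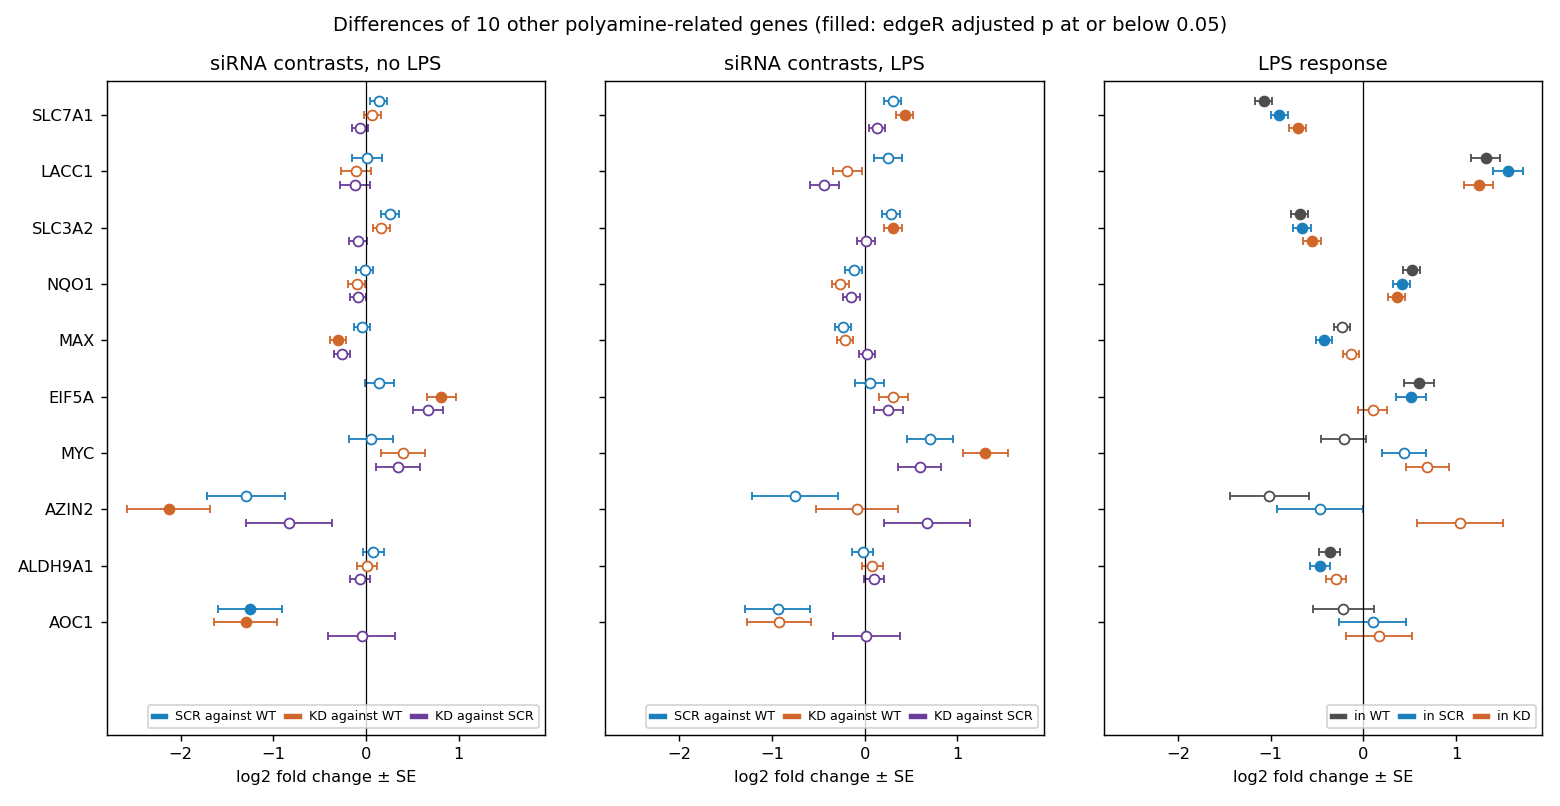
Log2 fold change ± SE (horizontal axis) of 10 other genes around polyamine metabolism (vertical axis) in the same comparisons, with filled points for those that passed the edgeR test. SLC7A1 and SLC3A2 lie below 0 and LACC1 and NQO1 above 0 in the LPS responses of all 3 conditions.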

How the data were processed

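RNA was measured in 18 THP-1 libraries made with a QuantSeq 3′ kit. According to the study's methods, the authors removed adaptor, poly-A and low-quality bases, aligned with HISAT to GRCh37 and counted with featureCounts over the last 500 bases of each gene. The strand setting was not given in the sources used here. The deposited values are raw read counts per Ensembl gene, and 0 columns were left out.

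Counts were normalized by TMM and filtered with filterByExpr by group, and 1 quasi-likelihood model with 6 group means was fitted to 16678 genes with edgeR 4.0.16 in R 4.3.3. P-values were adjusted by Benjamini-Hochberg over all these genes, with a threshold of 0.05. SE was taken as |log2 fold change| over √F, and intervals are 95% normal intervals. CPM are TMM-scaled, and correlations used log2 CPM with a prior count of 2. The scripts were tested on simulated data for KD against SCR without LPS. There 82% of genes changed 2-fold were recovered, and 13% of those changed 1.5-fold, so differences of the smaller size can be missed. The simulation gave all genes the same dispersion and changed only genes above a minimum level. PAOX and SMOX lie below that level, so these shares do not cover them. Replicate pairs differed by more than sampling noise, so none was treated as 1 library deposited more than once.

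The members and lists were chosen with earlier results of these data known. Named besides the members were TRAFD1, TNF, IL1B, the 10 genes of the wider list with the smallest adjusted p, and the 5 genes most correlated with ODC1.

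Same-numbered libraries deviated together in 1 comparison, SCR against WT with LPS (correlations 0.163 to 0.261), which counts as paired. Its fit with a replicate block called 0 members, as without the block. Alternatives were DESeq2 1.42.0, DESeq2 size factors in edgeR, no filter, a replicate block, the libraries of each contrast alone, the call rule of the study (absolute log2 fold change above 1 and adjusted p at or below 0.01), each library left out in turn and, added after seeing the data, pseudogene copies summed with their parents.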

Additional observations from a re-analysis of the deposited data

Results flagged for a closer look

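The LPS response of ODC1 was marked for a closer look because it differed between SCR and WT in the model's comparison of the responses. ODC1 rose by 0.89 on the log2 scale in WT (SE 0.12) and changed by 0.04 in SCR (SE 0.11), a difference of −0.85 (SE 0.16, edgeR adjusted p = 0.0288). All 3 WT libraries with LPS (41.8 to 53.2 CPM) lay above the 3 without (24.6 to 26.5 CPM), whereas the SCR libraries with LPS (58.6 to 74.1 CPM) overlapped those without (62.1 to 66.6 CPM). The WT libraries also led to the choice of ODC1, so this p is no independent evidence. The cause of the difference was not tested.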

How the results depend on the processing

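The single-gene values followed under the alternatives were those of members with an unadjusted p under 0.05 and all those of ODC1. A value was kept if it held its direction and side of the threshold. For ODC1 in comparisons of KD with WT it was kept if it held its direction and moved by less than the SD within groups, whatever its p. Of these values, 465 were kept, 24 passed only under the alternative, 44 no longer passed and 2 turned in sign. Those 2 were ODC1 in KD against SCR without LPS (−0.037 without KD replicate 1, range −0.037 to 0.075 over the libraries left out) and the LPS response of ODC1 in SCR (−0.055 without SCR replicate 5, range −0.055 to 0.12). The number of members called, with ODC1 counted in every comparison although it was chosen on these libraries, fell under the call rule of the study from 3 to 1 in SCR against WT and in KD against WT without LPS, from 2 to 0 in KD against WT with LPS, from 3 to 1, 2 to 1 and 2 to 0 for the LPS response in WT, SCR and KD, and from 1 to 0 for the LPS response of SCR against WT. In KD against SCR with LPS it rose from 0 to 1 (OAZ1) without the filter, with DESeq2, with a replicate block and with the contrast's own libraries, and in SCR against WT with LPS from 0 to 1 (ODC1) without the filter and with DESeq2. For the LPS response of KD against WT it rose from 0 to 2 without the filter and with DESeq2 and to 1 with a replicate block. For the LPS response in KD it was 1 with the contrast's own libraries. With 1 library left out the number ranged from 1 to 2 in SCR against WT without LPS, from 2 to 3 and from 1 to 2 in KD against WT without and with LPS, from 3 to 4 and from 1 to 4 for the LPS response in WT and KD, from 0 to 1 for the response of SCR against WT and from 0 to 2 for that of KD against WT. The share of all genes called under each alternative is not given here, so these shifts are no results about the members. The causes were not tested. The block changed no other count of members, DESeq2 size factors and added pseudogene counts changed no call, and in the comparisons other than SCR against WT with LPS the libraries share only a number, with same-number correlations from −0.0875 to 0.304. PAOX and SMOX had the fewest counts and the widest SE of the 10 genes.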

Other observations

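The 6 genes of the wider list that did not pass the filter on low counts were ARG1, MAT1A, MTAP, SLC18B1, SLC22A3 and SLC47A1. MTAP, which returns the methylthioadenosine left by SRM and SMS to methionine, had 0 to 6 counts per library. AMD1P3, which had 127 to 426 counts per library, was lower in SCR than in WT without LPS (log2 fold change −0.79, adjusted p = 0.029), in the same direction as AMD1.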
